A study of Mus musculus with 6 samples.

Results

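A set of 10 enzymes that make serine, move one-carbon units or make cysteine and asparagine was followed in C2C12 cells, a mouse myoblast line that stops dividing and forms myotubes when serum is lowered. The 10 genes Phgdh, Psat1, Psph, Shmt1, Shmt2, Mthfd2, Mthfd1l, Aldh1l2, Cth and Asns were taken by symbol from a table of 20950 entries. Levels are in FPKM, fragments scaled by transcript length and by library depth. Averaged over the 6 libraries, all 10 reached 1 FPKM or more, as did 10731 entries in all, which are called the expressed genes. Messenger RNA was sequenced from growing cells in DMEM with 10% FBS (fetal bovine serum), and from cells switched near confluence to differentiation medium. The differentiation media were 2% HS (horse serum), 2% HS + exosome, 0.2% FBS and 0.2% FBS + exosome. The exosomes were vesicle fractions isolated from FBS and were added in the amount that 10% FBS carries. The condition 0.2% FBS + exosome had 2 libraries, and each of the other 4 conditions had 1. No source used here says that these 2 libraries came from separate cultures, so the spread between them, and every p-value that rests on it, may be technical. The labels also number the libraries, with number 1 on both 2% HS libraries and numbers 2 and 3 on those in 0.2% FBS, so medium and library number cannot be told apart. C2C12 is 1 clonal line, and the day of sampling is not given in the sources used here.

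The libraries were alike in scale. The sum of FPKM per library was 461439 to 515215, and the depth estimated from the steps between low FPKM values was 33700000 to 39400000 reads. At that depth the lowest value of a member stood for an estimated 51 reads for Cth, 406 for Psph and 448 for Shmt1, and for 809 or more for the others. These are estimates, so no counting interval was attached to single values. The myogenic markers Myod1 (83.7 to 110.5 FPKM), Des (543 to 1061 FPKM) and Myog (350.2 to 720 FPKM) were present in every library, the growing one included. The hemoglobin gene Hbb-bs and the albumin gene Alb were at 0 in all 6, and the leukocyte marker Ptprc stayed at or below 0.0119 FPKM. Of the endothelial markers Pecam1 stayed at or below 0.0775 FPKM and Cdh5 at or below 0.114 FPKM. Of the epithelial markers Epcam stayed at or below 0.0318 FPKM, and Krt8 was at 0.350 to 0.607 FPKM.

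Serine is made from the glycolytic intermediate 3-phosphoglycerate in 3 steps, catalysed in turn by Phgdh, Psat1 and Psph. Serine hydroxymethyltransferase then splits serine into glycine and a one-carbon unit bound to folate, in the mitochondria by Shmt2 and in the cytosol by Shmt1. Inside the mitochondria Mthfd2 oxidises the folate-bound unit, Mthfd1l releases it as formate, and Aldh1l2 oxidises it to carbon dioxide with the production of NADPH. Cth cleaves cystathionine to cysteine, the last step of transsulfuration, and Asns makes asparagine from aspartate. Several of these genes are textbook targets of the transcription factor Atf4, which is made when amino acids run short or the endoplasmic reticulum or mitochondria are stressed, and which acts through sequences that pair a C/EBP half-site with an ATF half-site. Proliferating cells use one-carbon units for purine and thymidylate synthesis.

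The genes lie on 6 chromosomes (mm10, GENCODE vM21 annotation). Phgdh (chr3:98313170-98339990) and Cth (chr3:157894248-157925077) are on the minus strand of chromosome 3, each with 12 exons in its longest coding transcript. Asns (chr6:7675169-7693254, 12 exons) and Mthfd2 (chr6:83305691-83325908, 8 exons) are on the minus strand of chromosome 6. Shmt2 (chr10:127517123-127522444, 12 exons) and Aldh1l2 (chr10:83487450-83534140, 23 exons) are on the minus strand of chromosome 10, and Mthfd1l (chr10:3973118-4167081, 28 exons) is on its plus strand. Psph (chr5:129765558-129787449, 8 exons), Shmt1 (chr11:60788104-60811718, 12 exons) and Psat1 (chr19:15904678-15947337, 9 exons) are each alone on their chromosome and on the minus strand. Of the 75-base stretches of the longest Phgdh coding transcript, 863 of 1819 (47.4%) also occur in other annotated genes, so reads from Phgdh could be split with these. None of those genes is listed in the FPKM table. The share of such stretches was 0.361% for Shmt2 and 0 for the other 8. Psph, Shmt1, Shmt2 and Aldh1l2 overlap a gene on the opposite strand that the table also lists. The kit kept strand, but whether FPKM was computed by strand is not given in the sources used here.

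Promoter sequence is shown for 5 of the enzymes. Asns, Mthfd2, Phgdh and Psat1 are those with a window that were past the fold threshold with exosomes in 0.2% FBS, and Shmt1 is the enzyme that differed least across the libraries. RefSeq windows (GRCm38.p6, 250 bases before to 50 bases after the annotated start, 5′ to 3′ on the gene's strand) were held for 8 of the 10 genes, with 9 windows in all, since Psat1 has 2. Aldh1l2 and Cth had none. The motifs searched, on both strands, were TGATGNAA (a C/EBP-ATF response element), CCAAT (the site of NF-Y), GGGCGG (a GC box) and TGACGTCA (a cyclic AMP response element). Capitals mark every match, in either orientation, so that ATTGG is CCAAT and CCGCCC is GGGCGG read on the other strand. The windows are chr6:7693160-7693459 for Asns, chr6:83317555-83317854 for Mthfd2, chr3:98339920-98340219 for Phgdh, chr19:15925010-15925309 for the first Psat1 start and chr11:60811216-60811515 for Shmt1, all on the minus strand. The Mthfd2 and Psat1 windows lie well inside the GENCODE spans given above, whose 5′ ends are at 83325908 and 15947337. For these genes the RefSeq start is thus not the end of the listed span.
Asns: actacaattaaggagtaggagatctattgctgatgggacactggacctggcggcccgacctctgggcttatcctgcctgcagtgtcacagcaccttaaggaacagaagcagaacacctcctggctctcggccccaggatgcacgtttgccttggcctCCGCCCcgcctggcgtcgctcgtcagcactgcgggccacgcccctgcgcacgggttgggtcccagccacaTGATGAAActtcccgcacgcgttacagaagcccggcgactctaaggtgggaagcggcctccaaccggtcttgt
Mthfd2: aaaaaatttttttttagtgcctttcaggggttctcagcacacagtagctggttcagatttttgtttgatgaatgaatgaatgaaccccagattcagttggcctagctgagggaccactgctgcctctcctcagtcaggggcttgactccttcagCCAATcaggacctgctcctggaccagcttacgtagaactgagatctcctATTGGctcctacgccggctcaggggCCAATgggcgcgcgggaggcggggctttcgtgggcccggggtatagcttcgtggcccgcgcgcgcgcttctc
Phgdh: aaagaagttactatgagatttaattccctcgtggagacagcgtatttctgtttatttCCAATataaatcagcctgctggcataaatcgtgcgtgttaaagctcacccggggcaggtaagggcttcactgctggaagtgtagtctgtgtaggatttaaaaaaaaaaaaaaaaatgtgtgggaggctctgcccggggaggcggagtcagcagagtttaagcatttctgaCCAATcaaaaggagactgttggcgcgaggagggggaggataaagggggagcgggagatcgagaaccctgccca
Psat1: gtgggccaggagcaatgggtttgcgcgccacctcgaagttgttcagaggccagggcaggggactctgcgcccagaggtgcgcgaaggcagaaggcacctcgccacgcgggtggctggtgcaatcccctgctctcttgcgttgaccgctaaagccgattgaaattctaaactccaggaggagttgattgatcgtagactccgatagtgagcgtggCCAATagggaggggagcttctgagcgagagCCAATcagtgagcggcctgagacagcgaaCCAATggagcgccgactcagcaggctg
Shmt1: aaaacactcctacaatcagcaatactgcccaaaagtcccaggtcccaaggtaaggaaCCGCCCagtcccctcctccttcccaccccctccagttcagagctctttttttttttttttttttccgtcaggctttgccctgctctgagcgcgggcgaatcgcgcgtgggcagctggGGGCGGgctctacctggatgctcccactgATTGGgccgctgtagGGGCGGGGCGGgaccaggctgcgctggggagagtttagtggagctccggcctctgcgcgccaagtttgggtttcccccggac

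The response element letters occurred in 1 of the 9 windows, that of Asns, as TGATGAAA beginning 23 bases before the start site. They occurred in 3.97% of all 32851 windows and in 2.14% of the 10499 windows of expressed genes. CCAAT was found in 5 of the 9 windows, against 37.4% of all windows and 38.0% of those of expressed genes. It occurred 3 times each in the Mthfd2 and first Psat1 windows, 2 times each in those of Phgdh and Psph, and once, on the opposite strand, in that of Shmt1. The windows of Psph and Mthfd1l and the second Psat1 window, none of them shown, also held GGGCGG. The window of Shmt2, not shown, held none of the motifs. GGGCGG was found in 5 of the 9 windows, against 35.7% of all and 64.3% of expressed windows, with 4 matches in that of Shmt1, of which 2 adjoin each other sharing 1 base. TGACGTCA was in none of the 9, against 1.79% of all windows and 3.18% of expressed ones. A match is a description of these letters only.

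Across the 6 libraries, 9 of the 10 enzymes had their highest value in 2% HS + exosome and their lowest in a library of 0.2% FBS + exosome. The exception was Shmt1, the cytosolic hydroxymethyltransferase. The highest value was 2.46 times the lowest for Mthfd1l, between 3.36 and 7.93 times for the next 7, and 15.6 times for Cth, against 1.43 times for Shmt1. The SD of log2(FPKM + 1) over the 6 libraries of those 9 enzymes lay between the 89.6 and 99.7 percentiles of the 10731 genes, and that of Shmt1 at the 34.5 percentile. Summed FPKM of the serine synthesis enzymes Phgdh, Psat1 and Psph was 185 in 10% FBS, 307 in 2% HS, 626 in 2% HS + exosome, 331 in 0.2% FBS, and 159 and 154 in 0.2% FBS + exosome. The sum of the mitochondrial folate enzymes Shmt2, Mthfd2, Mthfd1l and Aldh1l2 was 92.3, 154, 326, 146, 77.0 and 78.1 in the same order. Both sums were highest in 2% HS + exosome, with the 2 differentiation controls next and close to each other (0.2% FBS above 2% HS for serine synthesis, below it for the folate enzymes) and the growing culture above the 2 exosome libraries of 0.2% FBS.

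**Figure D1:**
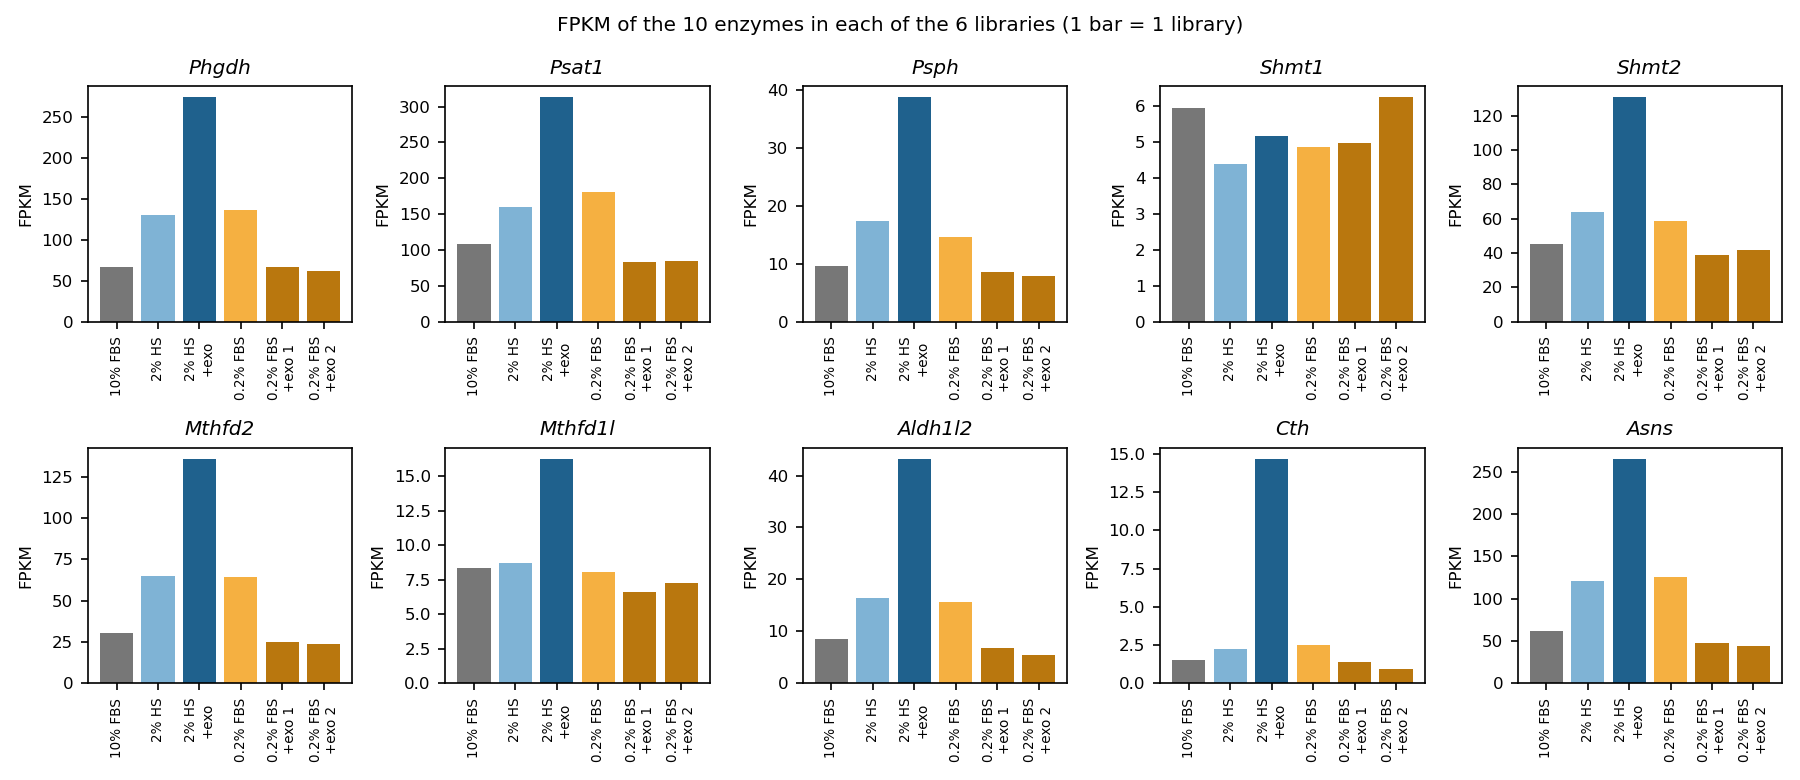
FPKM (y axis, from 0, a scale for each gene) of the 10 enzymes in each library, 1 bar per library and no error bars. In 9 panels the bar of 2% HS + exosome is the highest and those of 0.2% FBS + exosome the lowest, and the Shmt1 panel stays between 4.38 and 6.24.

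The pairwise Pearson r of log2(FPKM + 1) over the 6 libraries among those 9 enzymes ranged from 0.869 to 0.998 over 36 pairs, with a median of 0.971. Shmt1 had an r of −0.52 to −0.11 with them. These describe 6 points that share their libraries and carry no test, and the single library of 2% HS + exosome is far from the others in each pair.

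The first comparison asks what exosomes did in 0.2% FBS, the medium with replicate exosome libraries. Of the 10 enzymes, 5 were lower by more than 1 on the log2(FPKM + 1) scale (Phgdh, Psat1, Mthfd2, Aldh1l2 and Asns), and 9 were below 0. The study also takes a log2 fold of 1 but states no pseudocount, and on the plain ratio of FPKM Cth, at 0.464 of its control, would be past it too. The median difference of the 10 was −0.92, against 0.14 for all 10731 genes. In all, 241 of those genes (2.25%) were lower by more than 1. The same 5 enzymes passed in each of the 2 exosome libraries taken singly, as 173 genes (1.61%) did. RNA from a mixed culture cannot tell less RNA per cell from fewer cells of a type. A difference on this scale understates the change of low genes such as Cth.

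Phgdh, which commits 3-phosphoglycerate to serine synthesis, stood at 136 FPKM in 0.2% FBS alone, and its exosome libraries held 66.9 and 61.3 FPKM. Both exosome libraries lay below the control, at 0.471 of its level on average. The log2 difference was −1.07 ± 0.087 (SD, n = 2), and limma gave it a standard error of 0.20 and a Benjamini-Hochberg adjusted p of 0.0177. Psat1, the aminotransferase of the second step, was at 180.2 FPKM without exosomes and at 83.5 and 85.0 FPKM with them. Its 2 exosome libraries were nearly level, with a log2 difference of −1.09 ± 0.018 (SD, n = 2) and an adjusted p of 0.0186 in limma. Psph, the phosphatase that releases serine, was at 14.6 FPKM, and at 8.63 and 7.85 FPKM with exosomes. Its difference of −0.76 ± 0.086 (SD, n = 2) missed the fold threshold but passed limma, with an adjusted p of 0.0237.

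Mthfd2, the mitochondrial methylenetetrahydrofolate dehydrogenase, stood at 64.3 FPKM in the control library, against 24.7 and 23.6 FPKM with exosomes. The exosome libraries were thus at 0.376 of the control, with a log2 difference of −1.38 ± 0.043 (SD, n = 2) and an adjusted p of 0.00735 in limma. Aldh1l2, the mitochondrial formyltetrahydrofolate dehydrogenase, was at 15.6 FPKM, and at 6.82 and 5.45 FPKM with exosomes. The lower of these replicates was the second one, and the difference was −1.22 ± 0.20 (SD, n = 2) with an adjusted p of 0.00863 in limma. Shmt2, which feeds serine carbon into the mitochondrial folate pool, was at 58.5 FPKM, and at 38.9 and 41.7 FPKM with exosomes. Both exosome libraries were below the control, but the difference of −0.53 ± 0.070 (SD, n = 2) did not pass limma (adjusted p = 0.0826). Mthfd1l, the mitochondrial formate-releasing synthetase, was at 8.06 FPKM, and at 6.61 and 7.26 FPKM with exosomes, a difference of −0.19 ± 0.084 (SD, n = 2) with an adjusted p of 0.457 in limma. Its 95% interval in limma ran from −0.56 to 0.18. Shmt1 was at 4.85 FPKM, and at 4.97 and 6.24 FPKM with exosomes. It was the only enzyme above its control in both libraries, with a difference of 0.17 ± 0.20 (SD, n = 2), an interval of −0.25 to 0.59 and an adjusted p of 0.576 in limma.

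Asns, asparagine synthetase, had the largest difference of the 10. Its control library held 125.7 FPKM, and the exosome libraries 47.6 and 43.4 FPKM. The exosome libraries stood at 0.362 of the control, with a log2 difference of −1.45 ± 0.093 (SD, n = 2) and an adjusted p of 0.00764 in limma. Cth, cystathionine gamma-lyase, was the lowest of the 10 in level, at 2.48 FPKM, and at 1.36 and 0.941 FPKM with exosomes. Its difference of −0.70 ± 0.20 (SD, n = 2) did not pass limma (adjusted p = 0.0516), although its mean with exosomes was 0.464 of the control.

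limma thus called 6 of the 10 enzymes lower (Phgdh, Psat1, Psph, Mthfd2, Aldh1l2 and Asns) and none higher, against 464 of 10731 genes lower (4.32%) and 880 higher. The fit had 1 residual degree of freedom, from the 2 replicates, and assumed that the single control varies like them. With each library scaled to the same 75th percentile, which took the median of all genes from 0.14 to near 0, the split was 723 lower and 474 higher, and 8 of the 10 enzymes passed, with Shmt2 and Cth added. Without the filter on low values no gene of 16450 passed, and the lowest adjusted p of an enzyme was 0.243 (3121 genes had an unadjusted p under 0.05).

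**Figure D2:**
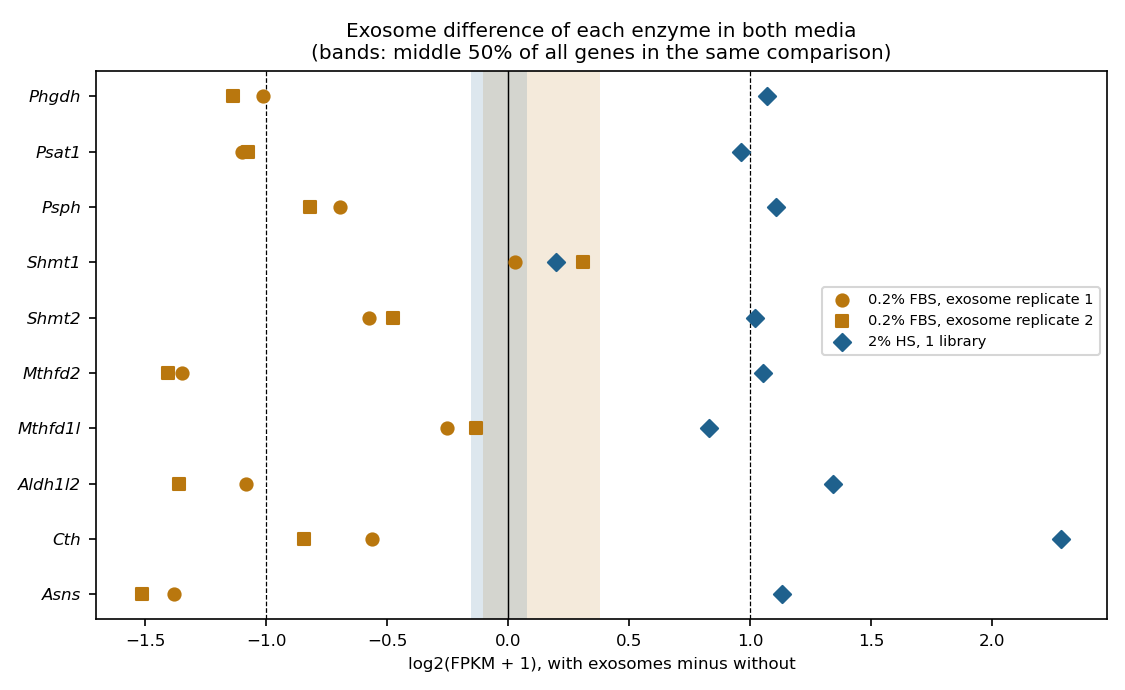
Difference in log2(FPKM + 1), with minus without exosomes, of each enzyme. Circles and squares are the 2 exosome libraries of 0.2% FBS, each against the same control library, diamonds are the single pair of 2% HS libraries, bands hold the middle 50% of all 10731 genes and dashed lines mark the threshold of 1. Circles and squares lie left of 0 and diamonds right of it for 9 enzymes, and all 3 marks of Shmt1 lie between 0.03 and 0.31.

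Exosomes from FBS were also added to 2% HS, with 1 library in each condition and so no replicate check and no p-value. There 7 of the 10 enzymes were higher by more than 1 (Phgdh, Psph, Shmt2, Mthfd2, Aldh1l2, Cth and Asns), as were 38 of 10731 genes (0.354%). All 10 were above 0, and their median was 1.06, against −0.04 for all genes. Cth stood out in size, at 2.22 FPKM without and 14.7 FPKM with exosomes, a ratio of 6.62 and a log2 difference of 2.29. Only 3 genes of the 10731 had a greater difference. Aldh1l2 went from 16.4 FPKM in the control to 43.2 FPKM, a difference of 1.34. Asns was at 121 and 265 FPKM, a difference of 1.13.

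In the serine synthesis steps Phgdh went from 130.1 to 275 FPKM (1.07), Psat1 from 159.9 to 313 FPKM (0.96) and Psph from 17.4 to 38.8 FPKM (1.11). The 3 steps had ratios close to each other, at 2.11, 1.96 and 2.22. Shmt2 was at 64.0 and 131 FPKM (1.02), Mthfd2 at 65.0 and 136 FPKM (1.05), and Mthfd1l at 8.71 and 16.3 FPKM (0.83). Mthfd1l, with a difference of −0.19 in 0.2% FBS, was thus at 1.87 times its control in 2% HS. Shmt1 was at 4.38 and 5.18 FPKM, a difference of 0.20.

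The exosome difference in 0.2% FBS was set against that in 2% HS with limma on all 6 libraries. The 2% HS pair and the 0.2% FBS control are single libraries, and the fit lends them the spread of the 2 exosome replicates of 0.2% FBS (1 residual degree of freedom), so its p-values compare these libraries under that assumption, which could not be checked. On that basis 8 of the 10 enzymes passed, against 93 of 10731 genes (0.867%) lower and 32 higher. On the log2 scale the difference in 0.2% FBS minus that in 2% HS was −2.99 (standard error 0.30, adjusted p = 0.00884) for Cth, −2.58 (0.29, adjusted p = 0.0142) for Asns and −2.57 (0.27, adjusted p = 0.0111) for Aldh1l2. It was −2.43 (0.26, adjusted p = 0.0111) for Mthfd2, −2.15 (0.30, adjusted p = 0.0245) for Phgdh, −2.05 (0.32, adjusted p = 0.0295) for Psat1, −1.87 (0.24, adjusted p = 0.0185) for Psph and −1.55 (0.27, adjusted p = 0.0395) for Shmt2. The differences of these 8 were below 0 in 0.2% FBS and above 0 in 2% HS, although Shmt2 and Cth had passed neither limma nor the fold threshold in 0.2% FBS, and Psat1 missed the fold threshold in 2% HS. Mthfd1l had the same pattern of signs but did not pass (−1.02, standard error 0.25, adjusted p = 0.0819), and Shmt1 was near 0 (−0.03, standard error 0.28, interval −0.67 to 0.61, adjusted p = 0.971).

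Without the filter on low values no gene passed (lowest adjusted p of an enzyme 0.359). Of all 10731 genes, 13 (0.121%) were both lower by more than 1 with exosomes in 0.2% FBS and higher by more than 1 with exosomes in 2% HS. The enzymes Phgdh, Mthfd2, Aldh1l2 and Asns were 4 of them. The other 9, chosen after their values were seen, were Adm2, Cfap52, Chil1, Cox6a2, Fgf21, Myh8, Pi15, Slc7a5 and Trib3. A fit with 1 exosome effect common to both media called 0 of the 10 enzymes and 0 of 10731 genes (0.0%) in limma, with adjusted p from 0.745 to 0.980 for the enzymes and 709 genes at an unadjusted p under 0.05.

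**Figure D3:**
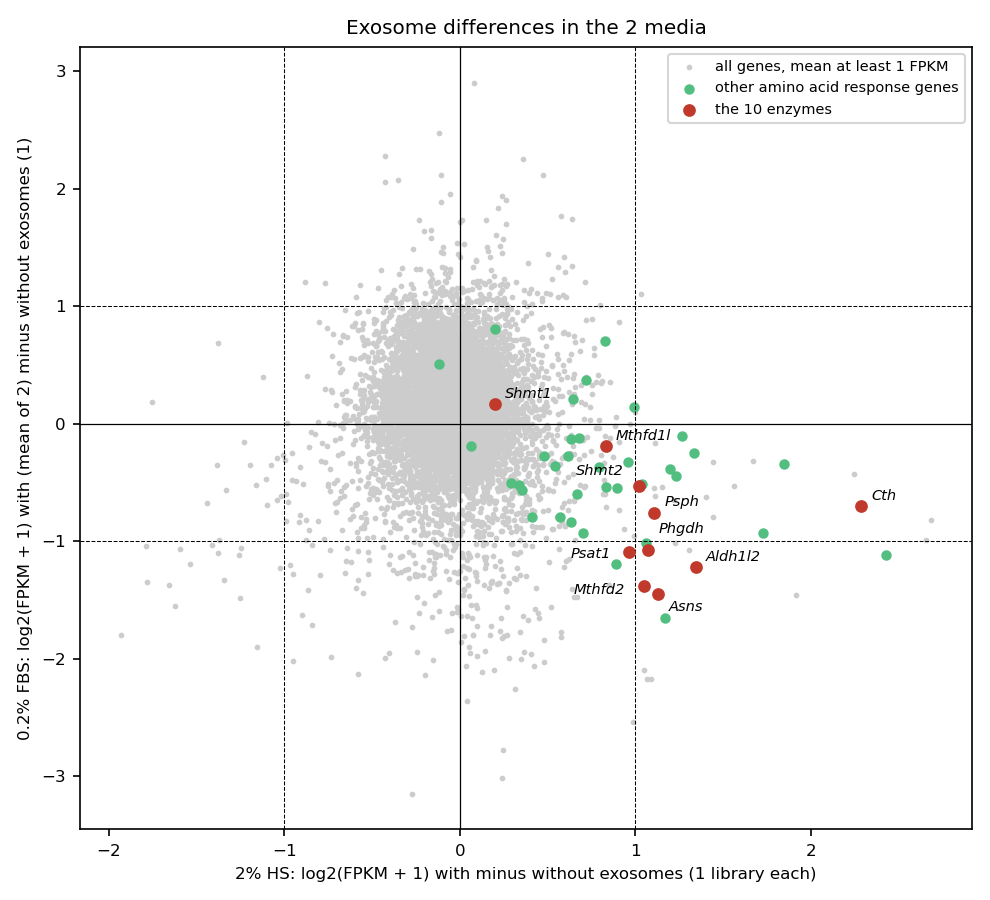
Each point is an expressed gene (10731 in all). The x axis is the difference in log2(FPKM + 1) with minus without exosomes in 2% HS (1 library each), the y axis the same in 0.2% FBS (mean of 2 libraries minus 1), and dashed lines mark 1 and −1. The 10 enzymes are red and other genes of the amino acid response green. Of the red points 9 lie below 0 on the y axis and above 0 on the x axis, and Shmt1 lies near the centre.

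The lowering of serum was examined next, by setting each differentiation control against the growing culture. These comparisons share the 10% FBS library, and each control is also the reference of an exosome comparison above. The 10% FBS library already held muscle differentiation transcripts, so the differences do not start from a culture without them. Myog was at 512 FPKM there, the fast troponin T gene Tnnt3 at 667 and the myosin light chain gene Mylpf at 3306. In 0.2% FBS 3 enzymes were higher by more than 1 than in 10% FBS, against 1.79% of all genes (192 of 10731). They were Mthfd2 (30.2 FPKM in 10% FBS, a difference of 1.07), Phgdh (67.3 FPKM, 1.00) and Asns (62.2 FPKM, 1.00). All 3 lay just inside the threshold. Aldh1l2 (0.81) and Psat1 (0.73) came next, then Psph (0.55), Cth (0.47) and Shmt2 (0.36). Mthfd1l (−0.04) was near 0 and Shmt1 (−0.25) below it. The median of the 10 was 0.64, against −0.09 for all genes.

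In 2% HS 1 enzyme, Mthfd2, was higher by more than 1 (1.08), against 1.79% of all genes (192 of 10731). Asns and Phgdh, at 0.94 each, were just outside the threshold. Aldh1l2 (0.88), Psph (0.79), Psat1 (0.56), Shmt2 (0.49), Cth (0.35) and Mthfd1l (0.06) followed, and Shmt1 was below 0 (−0.37). The median of the 10 was 0.67, against −0.08 for all genes. The 2 differentiation controls were close. Between 0.2% FBS and 2% HS the differences of the enzymes ran from −0.24 for Psph to 0.17 for Psat1. Thus 0 enzymes differed by more than 1, as 57 genes (0.531%) did, a share at which 0 of 10 says little.

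The enzyme levels in 0.2% FBS + exosome were also set against those in growing cells, the same 10% FBS library. No enzyme differed from 10% FBS by more than 1, as 65 genes (0.606%) did, a share at which 0 of 10 says little. All 10 mean differences were below 0, from −0.45 for Asns to −0.07 for Phgdh, with a median of −0.24 against 0.04 for all genes. Shmt1 was on either side of 0 in the single libraries (−0.22 and 0.06). For scale, the 2 exosome replicates differed by an absolute 0.147 in the median gene, with a 95th percentile of 0.508, and by −0.28 to 0.28 for the enzymes. By level the order of the conditions was 2% HS + exosome, then the 2 differentiation controls, then 10% FBS and 0.2% FBS + exosome, for the enzymes other than Shmt1 and Mthfd1l. Differences within the pair of controls, and between 10% FBS and the mean of 0.2% FBS + exosome, were inside that 95th percentile for every enzyme. In the second exosome library taken singly, Aldh1l2 (−0.55) and Asns (−0.51) were just outside it. The step from 10% FBS up to the controls was also inside it for Shmt2 (0.36 and 0.49) and Cth (0.47 and 0.35), so their order there is not beyond that scale.

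Mitochondrial and cytosolic relatives of the same reaction were set side by side, as FPKM is per length. The ratio of Shmt2 to Shmt1 was 7.63 in 10% FBS, 14.6 in 2% HS, 25.3 in 2% HS + exosome and 12.1 in 0.2% FBS, and 7.83 and 6.69 in 0.2% FBS + exosome. The ratio of Mthfd2 to Mthfd1, the cytosolic trifunctional enzyme, was 1.71, 3.68, 7.56, 3.58, 1.61 and 1.31 in the same order. Mthfd1 itself stayed between 15.3 and 18.1 FPKM. Mthfd2 was also 5.09 to 43.6 times its mitochondrial homologue Mthfd2l, lowest in the second exosome library of 0.2% FBS and highest in 2% HS + exosome. Mthfd1l stayed below Mthfd1 in every library, at 0.402 to 0.906 of its level. Aldh1l1, the cytosolic homologue of Aldh1l2, was at or below 0.379 FPKM throughout. Cbs, which makes the cystathionine that Cth cleaves, was at or below 0.144 FPKM.

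**Figure D4:**
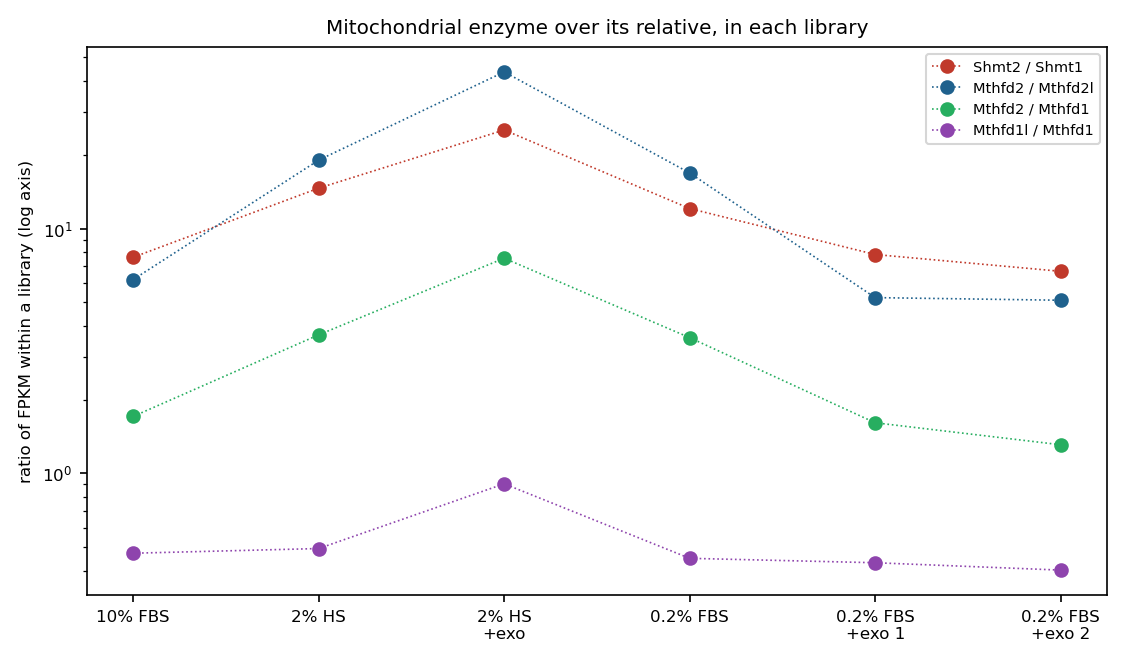
Ratio of FPKM within a library (y axis, log scale) of a mitochondrial enzyme to its relative, 1 point per library (x axis), with dotted lines only to guide the eye. The 2 ratios with Mthfd2 and that of Shmt2 to Shmt1 peak in 2% HS + exosome, at 43.6, 7.56 and 25.3.

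The rest of the pathway was described from lists. Of 31 other genes of the folate and methionine cycles, 24 were expressed. On the log2(FPKM + 1) scale 0 of these were past the fold threshold in either direction in any comparison. Of all genes, 2.25% were lower with exosomes in 0.2% FBS and 0.354% higher in 2% HS. In each control 1.79% were higher than in 10% FBS. At such shares 0 of 24 says little. On the plain ratio of FPKM, Amt and Csad would be past the threshold with exosomes in 0.2% FBS, and Amt also in each control against 10% FBS. Their median was 0.16 with exosomes in 0.2% FBS and −0.07 in 2% HS, close to the medians of all genes. limma called 2 of the 24 higher with exosomes in 0.2% FBS and none lower, a share near that of all genes called higher there (880 of 10731, 8.2%). These were Amt, the aminomethyltransferase of the glycine cleavage system, and Csad, a taurine synthesis enzyme. Amt was at 0.433 FPKM without and at 1.76 and 1.68 FPKM with exosomes (log2 difference 0.93, adjusted p = 0.0230 in limma), and Csad at 9.05 and then 17.1 and 20.1 FPKM (0.96, adjusted p = 0.0156). Amt reached the mean of 1 FPKM only through the libraries where it was high, so its call is no support for a direction. In 2% HS the differences of Amt and Csad were −0.11 and 0.00.

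The 12 purine synthesis genes, which use one-carbon units, had 0 genes past the fold threshold in either medium (2.25% of all genes were lower in 0.2% FBS and 0.354% higher in 2% HS, so that 0 of 12 says little), with medians of 0.01 in 0.2% FBS and −0.00 in 2% HS. limma called 1 of the 12, Impdh1, a dehydrogenase of guanine nucleotide synthesis, which was lower with exosomes in 0.2% FBS (−0.67, adjusted p = 0.0375), where 4.32% of all genes were called lower. Of the 19 S phase and mitosis genes, 1 was lower by more than 1 with exosomes in 0.2% FBS, the ribonucleotide reductase subunit Rrm2 (−1.16), against 2.25% of all genes, and the list's median was −0.01. In 2% HS 0 of the 19 passed in either direction. Of all genes 0.354% were higher by more than 1 there. The share of all genes lower by more than 1 was not counted, so this count says little. All 19 lay between −0.55 and −0.14, and the median was −0.43. The 9 enzymes were at their highest in 2% HS + exosome, where these cycle genes were below their control, none of them by more than 1. Against 10% FBS this list's median was −0.52 in 0.2% FBS, where the lowest value was that of Bub1, a mitotic checkpoint kinase (−1.04), −0.17 in 2% HS and −0.57 in 0.2% FBS + exosome.

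Among 35 expressed genes of the amino acid response, as taught for Atf4 and its partners, 4 were lower by more than 1 with exosomes in 0.2% FBS (2.25% of all genes were) and 0 higher, with a median of −0.38 (0.14 for all genes). They were Fgf21, a secreted metabolic hormone (127 FPKM without and 45.0 and 35.5 FPKM with exosomes, −1.65), Chac1, a glutathione-degrading enzyme (−1.20), Trib3, a pseudokinase that binds Atf4 (−1.12), and Slc7a5, a large neutral amino acid transporter (−1.02). limma called these 4 and 4 further genes lower (4.32% of all genes were) and 1 higher (8.2% of all genes were), Ddit4 (0.80, adjusted p = 0.0424). On the plain ratio of FPKM, Atf3, Slc7a11 and Slc7a1 would also be past the fold threshold with exosomes in 0.2% FBS. In 2% HS 10 of the 35 were higher by more than 1 (0.354% of all genes were) and 0 lower, with a median of 0.72 (−0.04 for all genes), and Trib3 went from 5.65 to 34.9 FPKM (2.43). The test of the difference between media called 13 of the 35, all lower in 0.2% FBS (0.867% of all genes were). Against 10% FBS, where 1.79% of all genes were higher in either control, 3 were higher in 0.2% FBS, namely Fgf21 (1.69), the stress cytokine Gdf15 (1.15) and Trib3 (1.05), with a median of 0.42. In 2% HS 3 were higher, namely Fgf21 (1.79), Gdf15 (1.15) and Chac1 (1.14), with a median of 0.44.

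Transcripts of Atf4 itself were at 284 FPKM in 10% FBS, 334 in 2% HS, 488 in 2% HS + exosome and 358 in 0.2% FBS, and at 282 and 277 with exosomes in 0.2% FBS. They stood in nearly the same order as the enzymes but over a narrower range, with differences of −0.36 in 0.2% FBS (adjusted p = 0.404 in limma) and 0.54 in 2% HS. Ddit3, a stress transcription factor of the same response, was 1 of the list genes that differed from the enzymes. Its control in 0.2% FBS held 26.4 FPKM and the exosome libraries 55.1 and 34.5 FPKM. Its differences were above 0 in both media (0.71 and 0.83), without passing limma in 0.2% FBS (adjusted p = 0.102). Ddit4 (0.80), Slc38a2 (0.51), Cebpb (0.37), Cebpg (0.21) and Ppp1r15a (0.14) were also above 0 with exosomes in 0.2% FBS, where the list's median was −0.38. Of these only Slc38a2 was below 0 in 2% HS (−0.12).

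Genes of muscle differentiation had a median below 0 with exosomes in 0.2% FBS and above 0 when serum was lowered, as the enzymes did. Of the 10 enzymes, 3 in 0.2% FBS and 1 in 2% HS had passed against 10% FBS. Shmt1 was below 0 in both. Whether the 11 muscle genes and the enzymes moved together was not tested. With exosomes in 0.2% FBS 9 of 11 were lower by more than 1 (2.25% of all genes were), with a median of −1.58, led by the perinatal myosin gene Myh8 (−2.17), the fast troponin T gene Tnnt3 (−1.81), the calcium-binding protein gene Casq2 (−1.81) and the myosin light chain gene Mylpf (−1.75), and limma called 5 of the 11 lower (4.32% of all genes were). With exosomes in 2% HS the median was −0.01, and 1 gene, Myh8, was higher by more than 1 (1.07), as 0.354% of all genes were. The median of the enzymes there was 1.06, and both medians rest on 1 library in each condition. In 0.2% FBS and in 2% HS against 10% FBS, 9 of 11 were higher by more than 1 (1.79% of all genes were in each), with medians of 1.30 and 1.16 (led by Casq2 at 1.62 and 1.59). The part of differentiation or of cell division in the enzyme values was not tested.

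**Figure D5:**
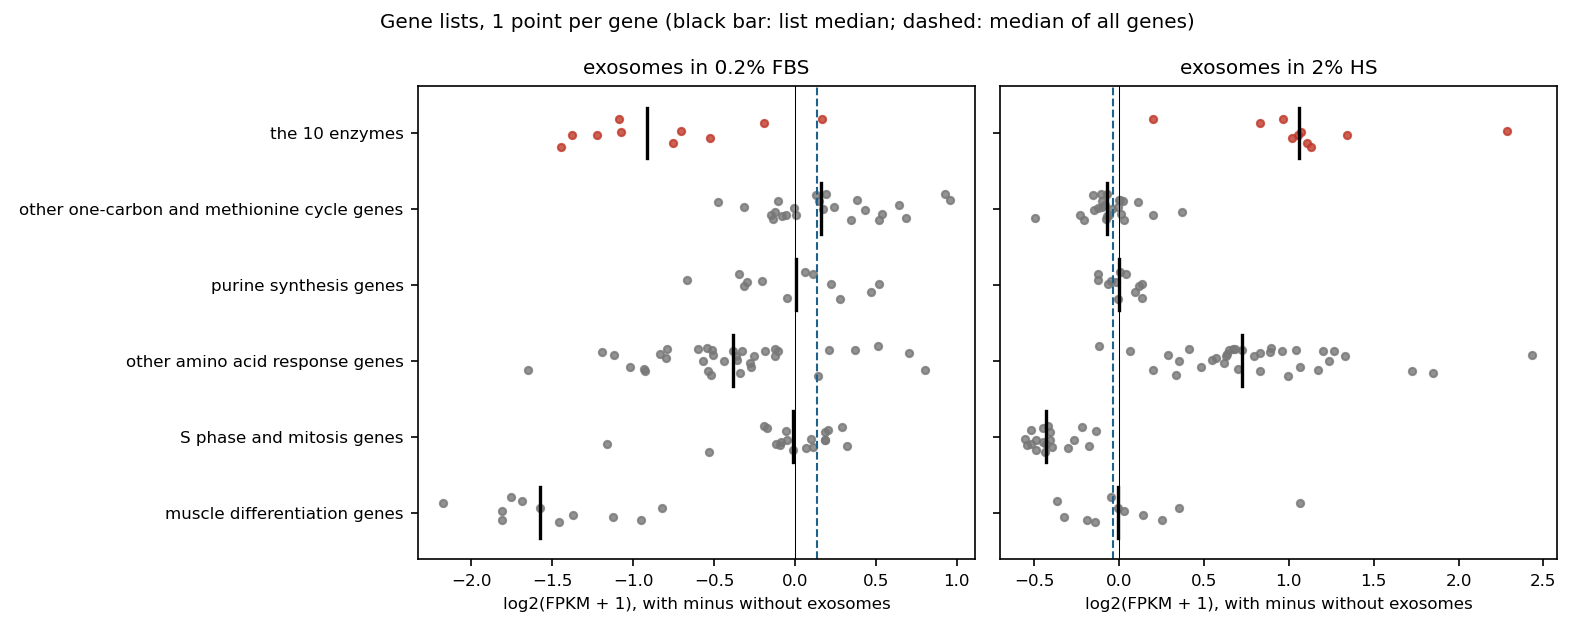
Difference in log2(FPKM + 1), with minus without exosomes, of each gene of the 10 enzymes and 5 lists (1 point per expressed gene), in 0.2% FBS (left, mean of 2 libraries minus 1) and in 2% HS (right, 1 library each). Black bars are list medians and the dashed line is the median of all 10731 genes. The medians of the enzymes are −0.92 and 1.06, those of the other one-carbon genes 0.16 and −0.07.

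The genes with the profile most like the mean of the 10 enzymes were sought among the 2652 expressed genes with an SD of at least 0.3 over the libraries. The first was Wars, the tryptophanyl-tRNA synthetase (Pearson r = 0.998 over 6 libraries). It was at 29.2 and 55.1 FPKM without and with exosomes in 2% HS, and at 31.0 and then 20.8 and 21.0 FPKM in 0.2% FBS. Leaving out the enzymes themselves, of which Shmt2 came highest (r = 0.995, the third place of all), the next after Wars were Phf10, Vdac3, Eif1ad, Bcat1, Glrp1, Tmem126a, Adm2, Xpot and Yars, with r from 0.996 to 0.987. Yars is the tyrosyl-tRNA synthetase, Xpot exports tRNA from the nucleus, and Bcat1 transfers the amino group of branched-chain amino acids. Adm2, a secreted peptide of the adrenomedullin family, spanned the widest range of the 10 as a ratio of highest to lowest FPKM. It was at 10.7 and 43.2 FPKM without and with exosomes in 2% HS, and at 9.65 and then 3.15 and 2.64 FPKM in 0.2% FBS. As with the pairs of enzymes, these values describe 6 libraries of which 1 is far from the others.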

How the data were processed

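RNA of 6 C2C12 libraries was prepared with a stranded mRNA kit and sequenced as single-end reads. Per the methods and the submitters' processing notes, the authors trimmed reads with cutadapt 1.9.1, mapped them to mm10 with TopHat2 2.1.0 and obtained expression values with Cufflinks. The deposited values are FPKM, in a single table. FPKM divides by transcript length and library depth, so the tests ran on scaled values and not on read counts, and depth was estimated from the steps of low values in genes with 1 transcript. The columns were matched to conditions by the labels.

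Values were compared as log2(FPKM + 1) (pseudocount 1), on the 10731 genes averaging 1 FPKM or more, with a threshold of 1. The authors also took a log2 fold of 1 and state no pseudocount. limma 3.58.1 (R 4.3.3) was run with a mean-variance trend and Benjamini-Hochberg adjustment over those genes. One fit gave each condition its own mean (1 residual degree of freedom), and another had terms for medium and exosomes in the 5 differentiating libraries (2 residual degrees of freedom). The authors' own fold rule has no test, so limma was an addition. Alternatives were another pseudocount (0.1), values below 1 FPKM raised to 1, scaling to the same 75th percentile, no filter, no trend and leaving out each exosome replicate.

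The 10 enzymes, the gene lists and the motifs were chosen with earlier results of these data known. Named genes are the enzymes, list genes beyond that threshold, either with exosomes in 0.2% FBS or in a differentiation control against 10% FBS (at most 4 per list and comparison), and the 10 genes most like the mean profile. Other named genes were chosen after their values were seen. They are calls of limma, genes opposite in both media, Atf4, Ddit3, the response genes named with Ddit3 and the relatives of the enzymes. Positions come from GENCODE vM21 and promoter windows from RefSeq (GRCm38.p6).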

Additional observations from a re-analysis of the deposited data

Results flagged for a closer look

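The enzymes below were marked by limma for the difference between media (adjusted p under 0.05) or by opposite signs in the 2 media. For the signs, both exosome libraries of 0.2% FBS had to lie opposite to the single pair of 2% HS. All 9 had opposite signs. The values are the log2 difference in 0.2% FBS minus that in 2% HS. For Cth it was −2.99, for Asns −2.58, for Aldh1l2 −2.57, for Mthfd2 −2.43, for Phgdh −2.15, for Psat1 −2.05, for Psph −1.87 and for Shmt2 −1.55, and each of these 8 passed limma for this difference. The 2% HS pair and the 0.2% FBS control are single libraries with no replicate of their own. The test and the signs that marked the enzymes come from the same libraries, so passing is no independent support. For Mthfd1l, marked by its signs alone, the value was −1.02 and did not pass limma (adjusted p = 0.0819). No group held 4 or more libraries, so no library could be tested for standing apart from its group.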

How the results depend on the processing

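No paired analysis was possible because the groups compared share fewer than 2 library numbers in the labels, except for the common effect of both media. There a replicate block on the library number, chosen after seeing the data, called 0 enzymes and 0 genes (296 at an unadjusted p under 0.05), as the fit without the block did (709). Each number lies within 1 medium, so whether the numbers pair the libraries could not be checked. Leaving out an exosome replicate could not be done in the fit with 1 mean per condition, which then has no residual degrees of freedom. It left the counts of enzymes past the fold threshold at 5 lower in 0.2% FBS, with medians of −0.96 and −0.85, and the common effect of both media at 0 and 0 enzymes called. Of 220 differences of single enzymes under alternatives, 195 moved by less than the SD between the exosome replicates, 25 moved by more, and 0 of the called ones changed sign. Without the filter on low values, 16450 genes were tested, and limma called 0 of the 10 enzymes with exosomes in 0.2% FBS (6 with the filter) and 0 for the difference between media (8 with it). No gene was called then, 3121 and 2276 had an unadjusted p under 0.05, and the cause was not tested. For the difference between media limma called 125 genes in all, 45 without the trend, where Shmt2 was lost (7 of 10 enzymes), and 169 and 172 with a pseudocount of 0.1 and with scaling, where 8 enzymes passed. With exosomes in 0.2% FBS it called 6 enzymes without the trend (412 genes lower and 621 higher), 7 with the pseudocount of 0.1 (491 lower and 965 higher, Cth added, adjusted p = 0.0414) and 8 with scaling (723 lower and 474 higher), which took the enzymes' median from −0.92 to −1.06 and that of all genes from 0.14 to 0.00. In the alternatives that kept the filter, the adjusted p of the 6 enzymes called in 0.2% FBS stayed at or below 0.0410. Estimated reads limit Cth most, at 51 in its lowest library.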
